A study of Saccharomyces cerevisiae with 18 samples.

Results

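The 10 genes described here encode the enzymes that make and break down trehalose and glycogen in *Saccharomyces cerevisiae*, namely *TPS1* (YBR126C), *TPS2* (YDR074W), *TPS3* (YMR261C), *TSL1* (YML100W), *NTH1* (YDR001C), *GSY1* (YFR015C), *GSY2* (YLR258W), *GLC3* (YEL011W), *GPH1* (YPR160W) and *GDB1* (YPR184W). They are named by pathway, by a rule that uses no measured value but was written with earlier results of these data known, and are 10 of the 7127 genes in the count table. RNA was sequenced after removal of ribosomal RNA from *snf2Δ* mutants, *snf5Δ* mutants and wild type (wt) cells, each grown in log phase at 30°C in rich medium (YPD) either with 3 mM cysteine for the last 30 min (YPD+Cys) or without it, with 3 replicates in each of the 6 groups. All strains are BY4741 (MATa *his3Δ1 leu2Δ0 met17Δ0 ura3Δ0*), so the wt control also lacks the homocysteine synthase gene *MET17*, and each mutant is a single strain of the genome deletion collection in which KanMX4 replaces *SNF2* or *SNF5*. *SNF2* encodes the ATPase of the chromatin remodeling complex Swi-Snf and *SNF5* another core subunit, and the study asked how loss of the complex alters metabolic transcription. The labels do not say whether replicates were separate cultures, so p-values measure the spread between these libraries, which may be technical.

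Trehalose is a disaccharide and glycogen a branched polymer of glucose, and both are made from UDP-glucose. Yeast store them as carbon reserves when nutrients run low, and trehalose also protects proteins and membranes under stress. In cells growing fast on glucose, protein kinase A keeps many of these genes low, while the activators Msn2 and Msn4, which bind the stress response element, raise them under stress.

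Each library held between 1329986 and 4845830 reads counted in genes. *SNF2* had 3 to 14 counts in the *snf2Δ* libraries, against 264 to 916 in *snf5Δ* and wt, and *SNF5* had 0 or 1 count in the *snf5Δ* libraries, against 114 to 289 in *snf2Δ* and wt. *LEU2*, *URA3* and *MET17* had 0 counts in each library. *HIS3*, which the genotype gives as *his3Δ1*, did have reads. Its mean in *snf2Δ* was 26.6 CPM in YPD+Cys and 28.1 CPM in YPD, and the reason was not tested. The α-cell pheromone genes *MF(ALPHA)1* and *MF(ALPHA)2* had 0 to 3 counts, whereas the **a**-cell receptor gene *STE2* had 213 to 2379. The α-cell receptor gene *STE3* was less apart from the **a**-cell pheromone gene *MFA1*. Their means in *snf2Δ* in YPD were 10.4 and 13.8 CPM (7.35 and 124 CPM per kilobase). In 3 YPD libraries over 40% of reads aligned to more than 1 place, and such reads are left out of the counts (53.5% in *snf2Δ* replicate 2, 44.6% in *snf2Δ* replicate 3 and 71.4% in *snf5Δ* replicate 3, against 3.0% to 28.6% in the others). All 10 genes passed the filter on low counts, with a lowest single count of 21 (*GSY1* in *snf2Δ* replicate 3 in YPD).

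The stretches upstream of the start codon were read from the R64 reference (sacCer3), in a window from 250 bases before the start codon to 50 bases into the coding sequence. A set of 3 motifs was searched on both strands, namely the core of the stress response element (AGGGG), the core of the post-diauxic shift element bound by the factor Gis1 (AGGGAT) and the site of Cbf1, a factor of sulfur genes (CACGTG). The stress response core was present in the windows of 7 of the 10 genes (*TPS1*, *TPS3*, *TSL1*, *NTH1*, *GSY2*, *GLC3* and *GDB1*), against 21.6% of 6001 protein-coding genes. The post-diauxic shift core was present only in that of *TPS2*, against 9.33% of all windows, and the Cbf1 site in none of the 10, against 2.92%. The 4 sequences below show the pair of glycogen synthase genes, 1 with and 1 without a match, the gene with the most stress response cores before its start codon, and the post-diauxic shift core. Capitals mark the motif, and the sequences of *TSL1* and *TPS2* start 10 bases before the first match and end with the start codon.
*GSY1*, chrVI:176342-176641, minus strand: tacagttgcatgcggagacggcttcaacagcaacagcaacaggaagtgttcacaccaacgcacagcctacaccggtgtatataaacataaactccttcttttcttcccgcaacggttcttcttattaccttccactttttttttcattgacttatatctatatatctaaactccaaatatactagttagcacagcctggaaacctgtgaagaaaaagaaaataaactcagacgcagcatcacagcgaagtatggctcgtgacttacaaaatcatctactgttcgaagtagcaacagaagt
*GSY2*, chrXII:660466-660765, plus strand: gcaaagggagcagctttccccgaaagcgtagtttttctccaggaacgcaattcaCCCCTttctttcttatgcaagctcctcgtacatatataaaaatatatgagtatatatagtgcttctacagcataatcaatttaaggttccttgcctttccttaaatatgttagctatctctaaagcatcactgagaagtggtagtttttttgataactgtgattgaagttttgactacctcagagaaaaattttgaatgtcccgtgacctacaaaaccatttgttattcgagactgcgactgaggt
*TSL1*, chrXIII:70383-70626, plus strand: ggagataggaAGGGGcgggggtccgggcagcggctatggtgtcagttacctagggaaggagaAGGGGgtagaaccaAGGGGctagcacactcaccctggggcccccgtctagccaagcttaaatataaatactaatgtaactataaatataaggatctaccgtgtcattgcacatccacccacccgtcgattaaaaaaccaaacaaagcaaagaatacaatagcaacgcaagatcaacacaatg
*TPS2*, chrIV:593672-593895, plus strand: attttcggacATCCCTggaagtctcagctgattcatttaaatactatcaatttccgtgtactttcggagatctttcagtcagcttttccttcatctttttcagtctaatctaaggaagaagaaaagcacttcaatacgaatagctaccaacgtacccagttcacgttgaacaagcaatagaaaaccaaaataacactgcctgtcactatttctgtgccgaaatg
No letters of *GSY1* are in capitals because none of the 3 motifs occurs in its window, and the same was true of *GPH1*. The stress response core of *GSY2* begins 196 bases before the start codon, and those of *TSL1* begin 231, 179 and 165 bases before it. Such a match is a description of the letters and not evidence that a factor binds there.

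Transcripts of glycogen synthase and glycogen phosphorylase fell in both mutants, and those of the neutral trehalase fell in *snf2Δ*. Those of the trehalose synthase complex did not pass the test. The calls of *GPH1* in both mutants, and of *GSY2* and *NTH1* in *snf2Δ*, were each lost under several alternatives, as given below. In YPD+Cys, 4 of the 10 genes fell in *snf2Δ* (*GSY1*, *GSY2*, *GPH1* and *NTH1*) and 3 in *snf5Δ* (*GSY1*, *GSY2* and *GPH1*), at an adjusted p under 0.05 by edgeR's quasi-likelihood test over 5757 genes. In YPD the same 4 genes fell in *snf2Δ* and the same 3 in *snf5Δ*. Of all genes tested, 11.6% fell in *snf2Δ* and 11.3% in *snf5Δ* in YPD+Cys, and 11.8% and 15.0% did so in YPD. None of the 10 genes rose in any of these comparisons, where 7.73% of all genes rose in *snf2Δ* and 9.73% in *snf5Δ* in YPD+Cys, and 7.89% and 12.0% in YPD. The log2 fold change of all 10 was below 0 in each comparison, with a median of -0.86 in *snf2Δ* and -1.03 in *snf5Δ* in YPD+Cys, and of -1.03 and -0.95 in YPD. Over all genes tested the median was 0.02 for *snf2Δ* and -0.02 for *snf5Δ* in YPD+Cys, and 0.02 and -0.01 in YPD. In limma on log2(TPM + 1) all genes together had a median of 0.46 for *snf2Δ* and 0.73 for *snf5Δ* in YPD+Cys, and of 0.19 and 0.44 in YPD. Of the genes it called, 90.1% were higher for *snf2Δ* and 97.0% for *snf5Δ* in YPD+Cys, against 40% and 46.2% by edgeR, and 67% and 90% were in YPD, against 40% and 44.3%. On that scale the median of the 10 was -0.35 for *snf2Δ* and -0.17 for *snf5Δ* in YPD+Cys, with 4 and 5 uncalled genes above 0, and -0.83 and -0.50 in YPD, with 0 and 3 above 0. The 4 comparisons share their wt libraries within a medium.

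**Figure D1:**
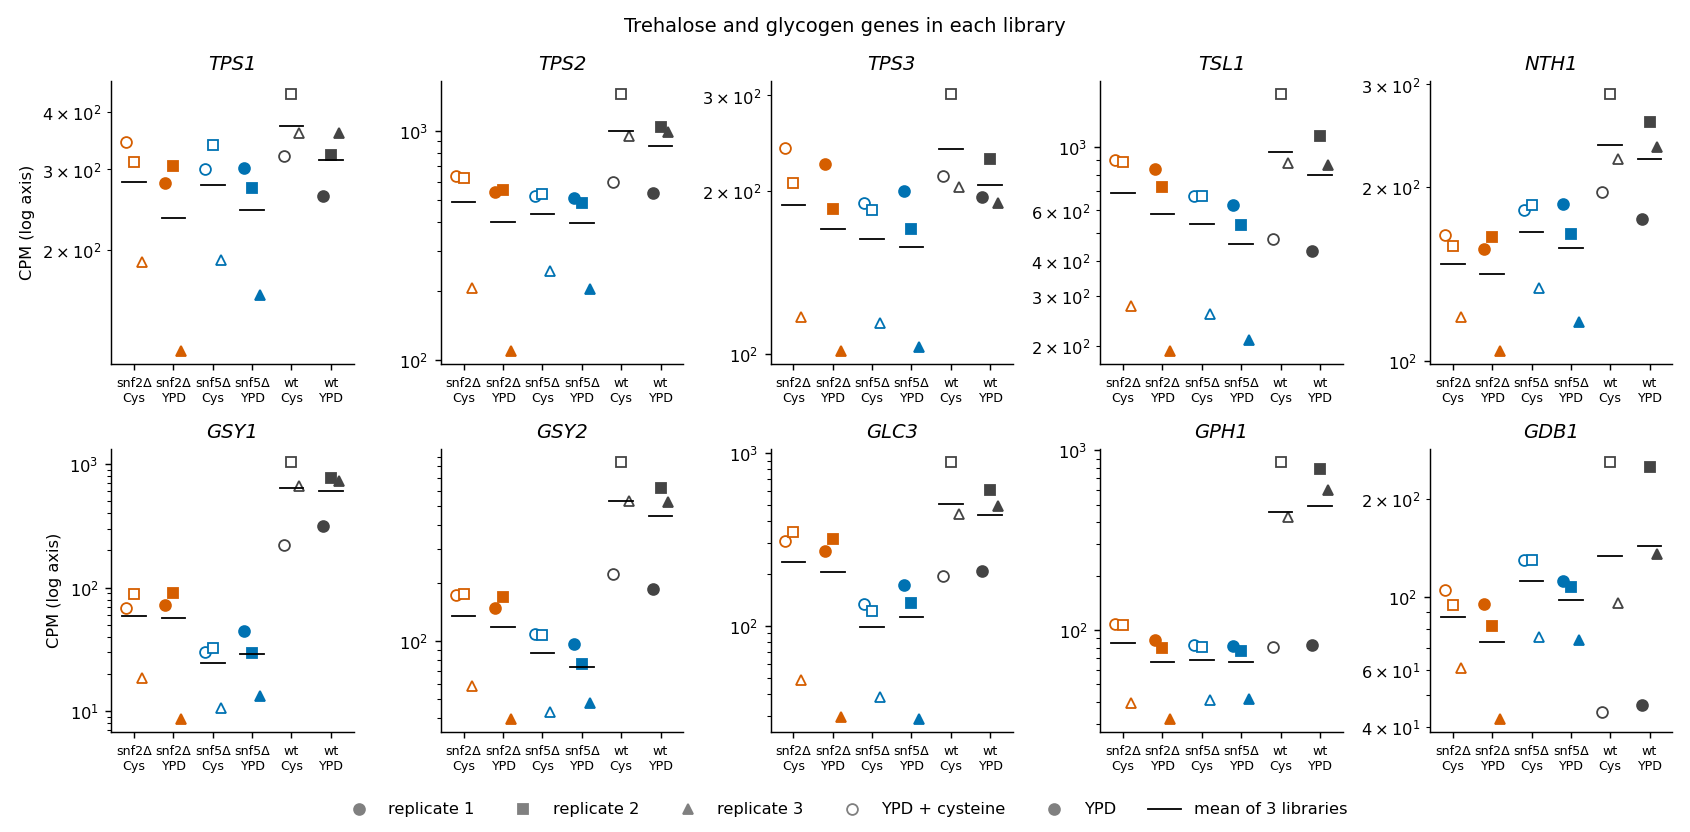
Normalised counts (CPM, counts scaled to a common library size with TMM factors) on a log axis (a separate scale for each gene) of the 10 genes in each library. Colours give the strain, open symbols YPD+Cys and filled symbols YPD, shapes the replicate number, and bars the mean of 3 libraries. The *GSY1* values of the mutants (8.62 to 90.2 CPM) all lie below those of wt (221 to 1040 CPM).

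**Figure D2:**
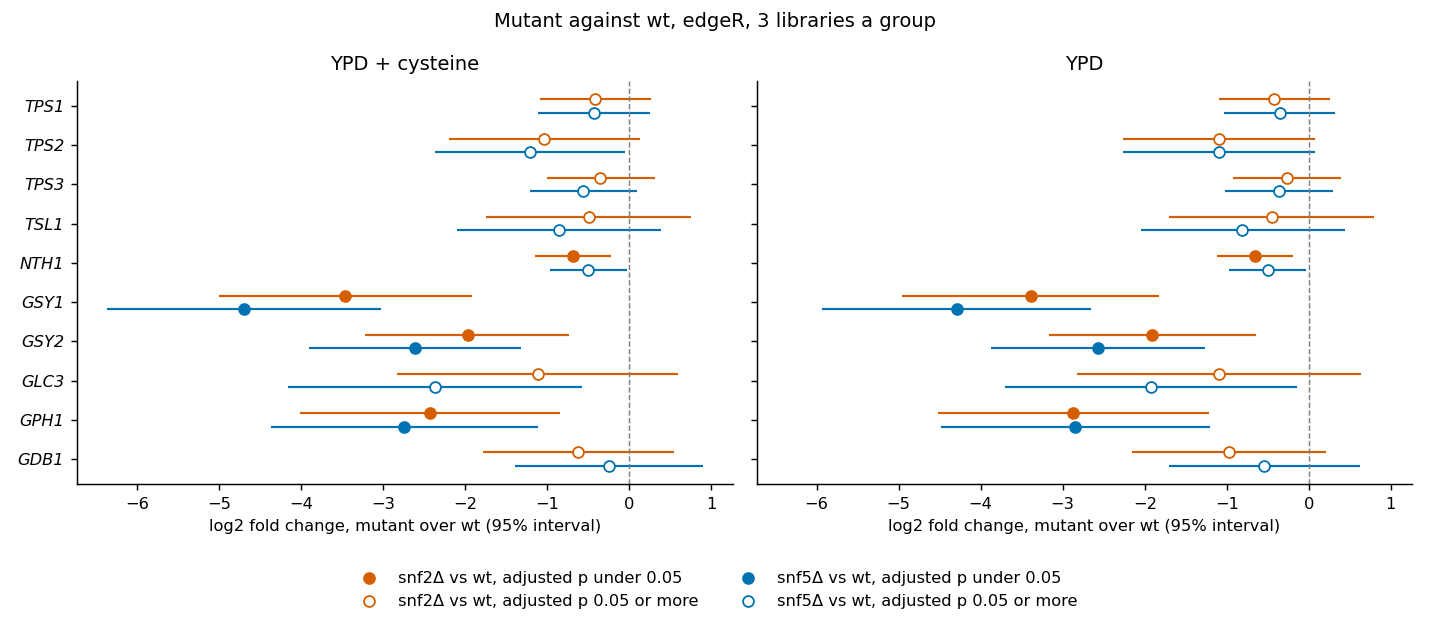
Log2 fold change of each mutant over wt with its 95% interval (edgeR, 3 libraries a group), in YPD+Cys on the left and YPD on the right, with filled symbols for an adjusted p under 0.05. All points lie left of 0, and *GSY1* lies farthest from it, at -3.46 and -4.70 in YPD+Cys and -3.39 and -4.29 in YPD.

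The glycogen synthase genes fell in both mutants, and *GSY1* had the largest change of the 10. Glycogen synthase lengthens the glycogen chain from UDP-glucose, and its isoforms Gsy1 and Gsy2 are paralogs, of which Gsy2 is the main one. In YPD+Cys, *GSY1* had 68.0, 88.8 and 18.6 CPM in *snf2Δ* replicates 1 to 3 and 30.4, 32.3 and 10.7 CPM in *snf5Δ*, against 221, 1040 and 658 CPM in wt. In YPD it had 71.9, 90.2 and 8.62 CPM in *snf2Δ* and 44.5, 29.6 and 13.4 CPM in *snf5Δ*, against 314, 765 and 722 CPM in wt. Each mutant library was thus below each wt library, although replicate 3 was the lowest of each mutant group and replicate 1 the lowest of wt. In YPD+Cys the level was 0.0909-fold that of wt in *snf2Δ* (log2 -3.46, SE 0.73, adjusted p = 0.00333) and 0.0386-fold in *snf5Δ* (-4.70, SE 0.79, adjusted p = 4.11e-04). In YPD it was 0.0951-fold in *snf2Δ* (-3.39, SE 0.74, adjusted p = 0.0039) and 0.0509-fold in *snf5Δ* (-4.29, SE 0.78, adjusted p = 7.28e-04). The only call that an alternative ended was that of *snf2Δ* in YPD, at -3.04 (adjusted p = 0.0679) without the 3 libraries of many reads in several places, which left 1 *snf2Δ* library. The size moved by more than 1.5 times by limma on log2(TPM + 1), to -2.72 in *snf2Δ* and -3.46 in *snf5Δ* in YPD+Cys and -3.57 in *snf5Δ* in YPD, where all genes together had medians of 0.46, 0.73 and 0.44.

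*GSY2* also fell, with smaller log2 fold changes than *GSY1*. In YPD+Cys it had 173, 175 and 58.6 CPM in *snf2Δ* and 109, 108 and 43.1 CPM in *snf5Δ*, against 221, 845 and 530 CPM in wt. The YPD libraries had 148, 168 and 39.4 CPM in *snf2Δ* and 96.8, 75.8 and 47.9 CPM in *snf5Δ*, against 186, 620 and 526 CPM in wt. The groups did not overlap, but wt replicate 1 was close to *snf2Δ* replicates 1 and 2 in both media. The level was 0.255-fold that of wt in *snf2Δ* in YPD+Cys (log2 -1.97, SE 0.59, adjusted p = 0.0272) and 0.164-fold in *snf5Δ* (-2.61, SE 0.61, adjusted p = 0.00569). In YPD it was 0.267-fold in *snf2Δ* (-1.91, SE 0.60, adjusted p = 0.0324) and 0.168-fold in *snf5Δ* (-2.57, SE 0.62, adjusted p = 0.00558). The *snf5Δ* calls held under each alternative, but by limma on log2(TPM + 1) the size was smaller, at -1.60 in YPD+Cys and -1.85 in YPD. The *snf2Δ* calls were lost in each medium on leaving out *snf2Δ* replicate 1 or 3, or wt replicate 2 or 3, at log2 values of -2.17 to -1.47 and adjusted p of 0.0568 to 0.113 in YPD+Cys and of -2.11 to -1.50 and 0.0666 to 0.11 in YPD. They were also lost with the compared groups alone (adjusted p = 0.0532 in YPD+Cys and 0.0571 in YPD), by limma on TPM values (0.0943 to 0.142, at log2 values of -1.72 to -1.35) and, in YPD, without the 3 libraries of many reads in several places (0.254).

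*GLC3*, the glycogen branching enzyme gene, was lower in *snf5Δ* than in wt but did not pass the test. In YPD+Cys it had 309, 346 and 48.3 CPM in *snf2Δ* and 134, 122 and 38.7 CPM in *snf5Δ*, against 193, 886 and 442 CPM in wt. In YPD it had 269, 316 and 29.5 CPM in *snf2Δ* and 172, 135 and 28.7 CPM in *snf5Δ*, against 208, 611 and 491 CPM in wt. All *snf5Δ* libraries lay below all wt libraries, whereas *snf2Δ* replicates 1 and 2 lay above wt replicate 1. The log2 fold change in *snf5Δ* was -2.37 (SE 0.85, adjusted p = 0.0579) in YPD+Cys and -1.93 (SE 0.84, adjusted p = 0.101) in YPD. In *snf2Δ* it was -1.11 (SE 0.81, adjusted p = 0.379) in YPD+Cys and -1.09 (SE 0.82, adjusted p = 0.388) in YPD, with 95% intervals of -2.83 to 0.60 and of -2.83 to 0.64. The value of *snf5Δ* in YPD+Cys passed the test with DESeq2 (-2.37, adjusted p = 0.0432), without wt replicate 1 of that medium (-2.74, adjusted p = 0.0418) and without the 3 libraries of many reads in several places (-2.34, adjusted p = 0.0291). With *snf5Δ* and wt of 1 medium fitted alone it passed in YPD+Cys (-2.35, adjusted p = 0.0179) and in YPD (-1.91, adjusted p = 0.0273).

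Of the genes that break glycogen down, *GPH1* fell in both mutants and *GDB1* did not pass the test. *GPH1* encodes glycogen phosphorylase, which releases glucose 1-phosphate from the chain ends. In YPD+Cys it had 109, 107 and 39.5 CPM in *snf2Δ* and 83.2, 80.4 and 40.9 CPM in *snf5Δ*, against 80.4, 864 and 424 CPM in wt. The YPD libraries had 88.0, 79.2 and 32.0 CPM in *snf2Δ* and 81.4, 77.0 and 41.5 CPM in *snf5Δ*, against 82.7, 783 and 600 CPM in wt. Replicate 1 of wt was thus at the level of the mutants in both media, and the difference lay in wt replicates 2 and 3. The level was 0.186-fold that of wt in *snf2Δ* (log2 -2.43, SE 0.75, adjusted p = 0.0319) and 0.150-fold in *snf5Δ* (-2.74, SE 0.77, adjusted p = 0.0177) in YPD+Cys. In YPD it was 0.137-fold in *snf2Δ* (-2.87, SE 0.78, adjusted p = 0.0148) and 0.139-fold in *snf5Δ* (-2.85, SE 0.78, adjusted p = 0.0121). In YPD these calls were lost without wt replicate 2 (adjusted p = 0.0582 in *snf2Δ* and 0.0547 in *snf5Δ*) or without replicate 3 of the mutant (0.0555 and 0.0511). In YPD+Cys that of *snf2Δ* was lost on leaving out any 1 *snf2Δ* replicate, or wt replicate 2 or 3 (0.0628 to 0.165), and that of *snf5Δ* on leaving out *snf5Δ* replicate 2 or 3, or wt replicate 2 (0.058 to 0.0956). Without wt replicate 2 the log2 values were -1.58 in *snf2Δ* and -1.89 in *snf5Δ* in YPD+Cys, and -2.30 and -2.27 in YPD. With the compared groups alone the *snf2Δ* call in YPD+Cys was lost (adjusted p = 0.0715). By limma on log2(TPM + 1) the values were -1.38 and -1.32 in YPD+Cys and -2.11 and -1.74 in YPD, and on TPM values none of the 4 calls held (adjusted p of 0.0924 to 0.2), and without the 3 libraries of many reads in several places those in YPD were lost (0.224 in *snf2Δ* and 0.0582 in *snf5Δ*).

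*GDB1*, the gene for the debranching enzyme, had in YPD+Cys 105, 94.5 and 60.7 CPM in *snf2Δ* and 130, 130 and 75.7 CPM in *snf5Δ*, against 44.4, 259 and 95.7 CPM in wt. In YPD it had 95, 81.6 and 42.3 CPM in *snf2Δ* and 112, 107 and 74.1 CPM in *snf5Δ*, against 46.9, 249 and 135 CPM in wt. The groups overlapped in each comparison, and wt replicate 1 was below all *snf5Δ* libraries. The log2 fold change was -0.62 (SE 0.55, adjusted p = 0.486) in *snf2Δ* and -0.24 (SE 0.54, adjusted p = 0.803) in *snf5Δ* in YPD+Cys, and -0.97 (SE 0.56, adjusted p = 0.249) and -0.55 (SE 0.55, adjusted p = 0.509) in YPD.

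The 4 genes of the trehalose synthase complex did not pass the test in any comparison of mutant and wt. *TPS1* encodes trehalose-6-phosphate synthase, *TPS2* the phosphatase that yields trehalose, and *TPS3* and *TSL1* the regulatory subunits, which are paralogs. *TPS1* had in YPD+Cys 344, 312 and 188 CPM in *snf2Δ* and 301, 340 and 190 CPM in *snf5Δ*, against 321, 439 and 361 CPM in wt. The YPD libraries had 280, 305 and 120 CPM in *snf2Δ* and 303, 273 and 159 CPM in *snf5Δ*, against 262, 322 and 361 CPM in wt. Apart from replicate 3, the mutants were within the range of wt or just under it. The log2 fold change lay between -0.43 and -0.35, with SE 0.32 and adjusted p of 0.377 to 0.456, so that the widest 95% interval reached -1.11.

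*TPS2* differed more, with 633, 623 and 207 CPM in *snf2Δ* and 518, 532 and 245 CPM in *snf5Δ*, against 596, 1450 and 954 CPM in wt, in YPD+Cys. In YPD it had 541, 550 and 109 CPM in *snf2Δ* and 508, 482 and 204 CPM in *snf5Δ*, against 537, 1040 and 990 CPM in wt. All *snf5Δ* libraries lay below all wt libraries in both media, and *snf2Δ* replicates 1 and 2 were just above wt replicate 1. The log2 fold change in *snf2Δ* was -1.04 (SE 0.55, adjusted p = 0.212) in YPD+Cys and -1.10 (SE 0.55, adjusted p = 0.183) in YPD. In *snf5Δ* it was -1.21 (SE 0.55, adjusted p = 0.133) and -1.10 (SE 0.55, adjusted p = 0.159). With *snf5Δ* and wt of 1 medium fitted alone, *TPS2* passed the test at -1.19 (adjusted p = 0.0465) in YPD+Cys and -1.08 (adjusted p = 0.0443) in YPD. With the replicate number as a block over all groups, it passed edgeR's test at -1.36 (adjusted p = 0.0339) in *snf2Δ* in YPD. In *snf5Δ* it then passed at -1.31 in YPD+Cys and -1.28 in YPD (adjusted p = 0.0347 each). The replicate numbers are not shown to pair strains.

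*TSL1* had 906, 885 and 278 CPM in *snf2Δ* and 675, 672 and 260 CPM in *snf5Δ*, against 477, 1540 and 882 CPM in wt, in YPD+Cys. The YPD libraries had 839, 725 and 192 CPM in *snf2Δ* and 625, 533 and 211 CPM in *snf5Δ*, against 434, 1100 and 867 CPM in wt. Here the groups overlapped, since replicates 1 and 2 of both mutants were above wt replicate 1. The log2 fold changes were -0.49 in *snf2Δ* and -0.85 in *snf5Δ* in YPD+Cys and -0.45 and -0.81 in YPD, each with SE 0.59 and adjusted p of 0.342 to 0.646. *TPS3* had 240, 207 and 117 CPM in *snf2Δ* and 190, 184 and 114 CPM in *snf5Δ*, against 213, 302 and 203 CPM in wt, in YPD+Cys. In YPD it had 224, 185 and 101 CPM in *snf2Δ* and 200, 170 and 103 CPM in *snf5Δ*, against 195, 229 and 190 CPM in wt. Its *snf5Δ* libraries were below wt in YPD+Cys only, and its log2 fold changes were -0.35 and -0.56 in YPD+Cys and -0.26 and -0.36 in YPD, each with SE 0.31 and adjusted p of 0.223 to 0.603.

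*NTH1*, which encodes the neutral trehalase that splits trehalose into glucose, fell in *snf2Δ*, with a smaller log2 fold change than *GSY1*, *GSY2* and *GPH1*. In YPD+Cys it had 165, 158 and 119 CPM in *snf2Δ* and 182, 186 and 134 CPM in *snf5Δ*, against 196, 289 and 223 CPM in wt. The YPD libraries had 156, 164 and 104 CPM in *snf2Δ* and 187, 166 and 117 CPM in *snf5Δ*, against 176, 259 and 234 CPM in wt. The *snf2Δ* libraries were below wt in both media, while *snf5Δ* replicate 1 overlapped wt replicate 1 in YPD. The level was 0.623-fold that of wt in *snf2Δ* (log2 -0.68, SE 0.22, adjusted p = 0.038) in YPD+Cys and 0.634-fold (-0.66, SE 0.22, adjusted p = 0.0467) in YPD. In *snf5Δ* the log2 fold change was -0.50 in both media (SE 0.22, adjusted p = 0.121 in YPD+Cys and 0.106 in YPD), and the difference between the mutants did not pass the test (log2 0.19 in YPD+Cys and 0.16 in YPD). The *snf2Δ* call in YPD was lost on leaving out *snf2Δ* replicate 1 or 3, or wt replicate 2 or 3 (adjusted p of 0.0723 to 0.183), and that in YPD+Cys on leaving out any 1 *snf2Δ* replicate, or wt replicate 2 or 3 (0.0627 to 0.151). Both calls were also lost with library totals, a minimum of 10 counts in every library, RSEM counts, limma and the compared groups alone (0.0614 to 0.807). The call in YPD was lost without the filter on low counts too (adjusted p = 0.0538 by edgeR). It was also lost without the 3 libraries of many reads in several places, at log2 -0.49, which left 1 *snf2Δ* library.

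Counted by separation alone, every *snf2Δ* library was below every wt library in 3 of the 10 genes in each medium (*GSY1*, *GSY2* and *NTH1*), against 17.2% of all genes in YPD+Cys and 17.4% in YPD. For *snf5Δ* this held for 6 genes in YPD+Cys (*TPS2*, *TPS3*, *NTH1*, *GSY1*, *GSY2* and *GLC3*), against 19.3% of all genes. In YPD it held for 5 (*TPS2*, *GSY1*, *GSY2*, *GPH1* and *GLC3*), against 21.1% of all genes.

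The ratio of the glycogen synthase transcripts did not overlap between mutants and wt. TPM divides by transcript length and allows genes to be compared within a library, where factors common to the library cancel. The TPM of *GSY1* was 0.399, 0.516 and 0.344 times that of *GSY2* in *snf2Δ* and 0.281, 0.297 and 0.227 times in *snf5Δ*, against 1.01, 1.23 and 1.26 times in wt, in YPD+Cys. The YPD ratios of *snf2Δ* were 0.491, 0.556 and 0.207, and those of *snf5Δ* 0.447, 0.391 and 0.297, against 1.69, 1.25 and 1.40 in wt. *GSY1* was thus below *GSY2* in all mutant libraries and at or above it in all wt libraries. The log2 ratio differed from wt by -1.48 in *snf2Δ* and -2.12 in *snf5Δ* in YPD+Cys, and by -1.90 and -1.94 in YPD. Each had p = 0.10 by an exact two-sided permutation test (n = 3 each), the smallest p that 3 against 3 libraries allow, and an adjusted p of 0.467 over the 28 ratio comparisons.

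The other ratios overlapped between mutants and wt in both media. The TPM of *GPH1* was 0.384 to 0.609 times that of *GSY2* in *snf2Δ* and 0.583 to 0.868 times in *snf5Δ*, against 0.285 to 1.04 times in wt, over both media. The ratio of *NTH1* to *TPS1*, the pair that splits and makes trehalose, was 0.320 to 0.568 in *snf2Δ* and 0.351 to 0.477 in *snf5Δ*, against 0.394 to 0.513 in wt. That of the paralogs *TSL1* to *TPS3* was 1.81 to 4.14 in *snf2Δ* and 2.05 to 3.69 in *snf5Δ*, against 2.07 to 5.03 in wt. Log2 differences from wt lay between -0.53 and 0.29 for these 3 ratios, with exact permutation p of 0.30 to 1.0 (n = 3 each). Between media within a strain, *GSY1* to *GSY2* in *snf5Δ* (log2 change with cysteine -0.49) and *NTH1* to *TPS1* in wt (-0.2) did not overlap. Each had p = 0.10 by the exact permutation test and an adjusted p of 0.467. All other ratios overlapped between media.

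**Figure D3:**
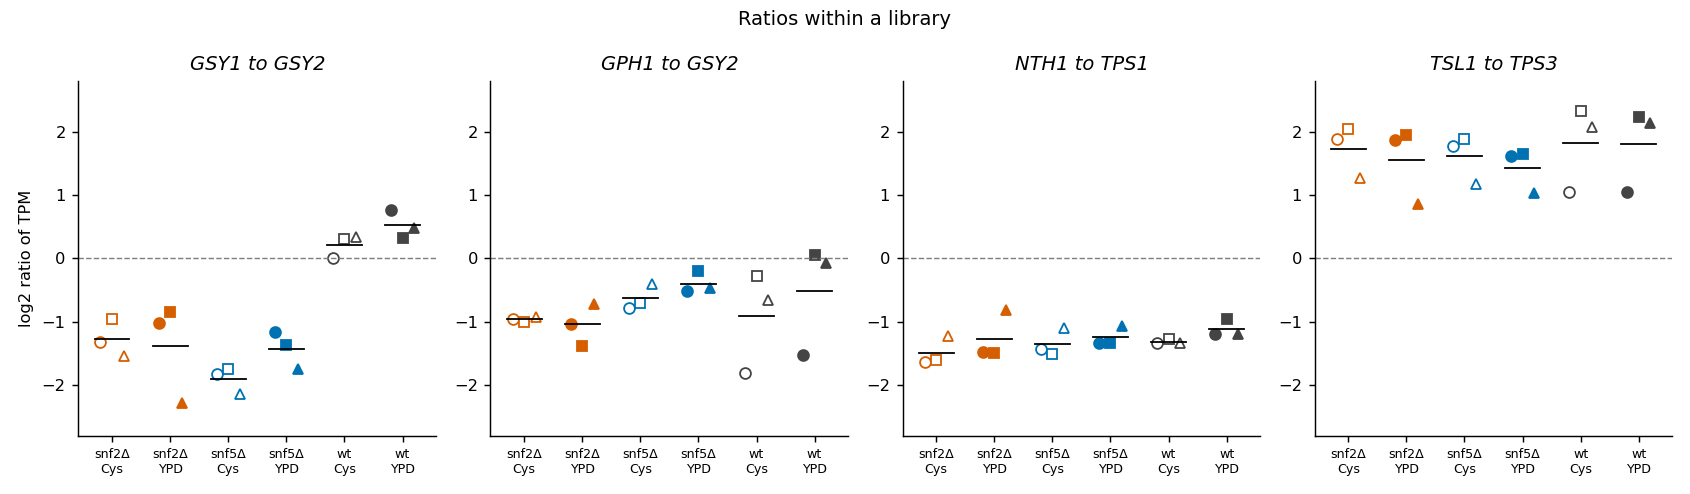
Log2 ratio of TPM for 4 pairs of genes in each library, with colours for the strain, open symbols for YPD+Cys, circles, squares and triangles for replicates 1, 2 and 3, and bars for the mean of 3 libraries. The *GSY1* to *GSY2* ratios of the mutants lie at or below -0.85 and those of wt at or above 0.01, and the other ratios overlap.

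Ordered by level per length in CPM per kilobase, *GSY1* ranked eighth of the 10 in *snf2Δ* in YPD (26.8 ± 20.1) and last in *snf5Δ* (13.7 ± 7.31), and only *TPS2* was above it in wt (282 ± 117; SD, n = 3 each). *TSL1* led in *snf2Δ* (177 ± 105), *TPS1* in *snf5Δ* (165 ± 51.0) and *TPS2* in wt (318 ± 103). *GDB1* was the lowest in *snf2Δ* (15.8 ± 5.94) and in wt (31.2 ± 22.0). All neighbours in the order overlapped in the mutants in YPD, and in wt only *NTH1* against *TPS3* and *TPS3* against *GDB1* did not.

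The replicates of a group differed in the 10 genes together. Replicate 3 of both mutants was below its group mean in all 10 genes in both media, by a median of 1.00 in *snf2Δ* and 0.70 in *snf5Δ* on the log2 scale in YPD+Cys and of 1.12 and 0.59 in YPD. Replicate 1 of wt was likewise below in all 10, by a median of 0.96 in YPD+Cys and 0.80 in YPD. In 9 of the 10 genes (all but *TPS3*) the lowest library was replicate 3 of both mutants and replicate 1 of wt in both media, against 7.30% of all genes, a pattern chosen after the values were seen. The summed CPM of the 10 genes was 1130 in *snf2Δ* replicate 3 in YPD+Cys, against 3050 and 2990 in the other *snf2Δ* libraries of that medium, and 2560 in wt replicate 1, against 7920 and 4770. The spread within groups was largest for *GLC3* (SD 1.35 on the log2 scale, percentile 99.9 of all genes) and smallest for *NTH1* (0.30, percentile 70.6), with a median of 0.23 over all genes. Of the 3 libraries with many reads in several places, *snf2Δ* replicate 2 in YPD (53.5%) was above its group mean in all 10 genes. The other libraries of this kind, replicate 3 of *snf2Δ* (44.6%) and *snf5Δ* (71.4%) in YPD, were below in all 10. Replicate 3 of *snf2Δ* (14%) and *snf5Δ* (8.7%) in YPD+Cys was also below in all 10. The source of these differences was not tested.

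**Figure D4:**
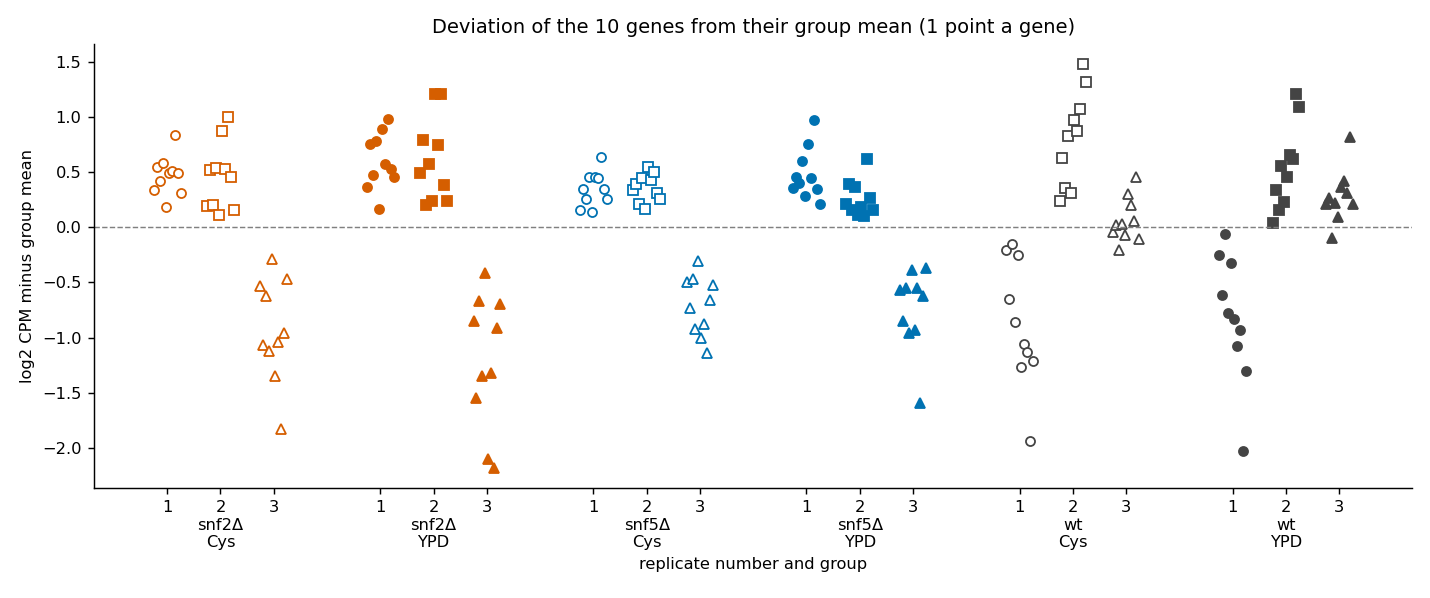
Deviation of each of the 10 genes (1 point a gene) from its group mean in log2 CPM, by replicate number and group, with colours and symbols as in the plot of CPM by library. Replicate 3 of both mutants and replicate 1 of wt lie below 0 for all 10 genes in both media, down to -2.18.

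With libraries taken as unpaired, none of the 10 genes passed edgeR's test for the addition of cysteine for 30 min in any strain, and none had an unadjusted p under 0.05. DESeq2 and limma on TPM values also called 0 of them. In that unpaired test 0.0521% of all genes rose and 0.591% fell in *snf2Δ*, 0.0695% and 0.834% in *snf5Δ*, and 0.208% and 0.226% in wt. Over the 10 genes the log2 changes ran from 0.03 to 0.34 in *snf2Δ*, from -0.31 to 0.22 in *snf5Δ* and from -0.12 to 0.27 in wt. In this unpaired fit the direction changed on leaving out single libraries, while the same-numbered library of the other medium stayed in. In *snf2Δ* 10 of the 10 were above 0 with a median of 0.21, but without its YPD replicate 3 only 1 was, with a median of -0.14. Likewise 8 were above 0 in *snf5Δ* (median 0.10) and 2 without its YPD replicate 3 (-0.15), and 8 in wt (0.22) and 2 without its YPD+Cys replicate 2 (-0.24) or YPD replicate 1 (-0.07). The unpaired 95% intervals were narrow for *NTH1* (-0.41 to 0.52 in *snf2Δ*, -0.38 to 0.55 in *snf5Δ* and -0.38 to 0.55 in wt) and wide for *GLC3* (-1.52 to 1.90 in *snf2Δ*, -1.98 to 1.53 in *snf5Δ* and -1.48 to 1.91 in wt).

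Libraries of the same strain and number shared their deviations in the 2 media, so the change was also computed within replicate numbers. The *snf2Δ* values were higher with cysteine in 27 of 30 pairs of gene and replicate (median log2 0.21), those of *snf5Δ* in 21 of 30 (0.12) and those of wt in 20 of 30 (0.11), against 49.9%, 51.8% and 49.6% of such pairs over all genes. The 10 genes varied together and share 3 pairs of libraries a strain, so they are not replicates of the change. For *TPS2* in *snf2Δ* the log2 change was 0.23, 0.18 and 0.93 in replicates 1 to 3. With the replicate number as a block within strain, *TPS2* rose in *snf2Δ* (log2 0.41, 1.33-fold, SE 0.12, adjusted p = 0.0474 by edgeR), and it was the only one of the 10 genes called in any of the cysteine comparisons. That paired fit called 5.19% of all genes in *snf2Δ*, 3.60% in *snf5Δ* and 6.22% in wt in either direction (299, 207 and 358 genes). At an unadjusted p under 0.05 it had 6 of the 10 in *snf2Δ*, 3 in *snf5Δ* and 4 in wt, against 18.7%, 13.7% and 20.6% of all genes. For *GLC3*, whose unpaired intervals were wide, the paired change was 0.26 (SE 0.13) in *snf2Δ*, -0.15 (SE 0.14) in *snf5Δ* and 0.11 (SE 0.12) in wt.

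**Figure D5:**
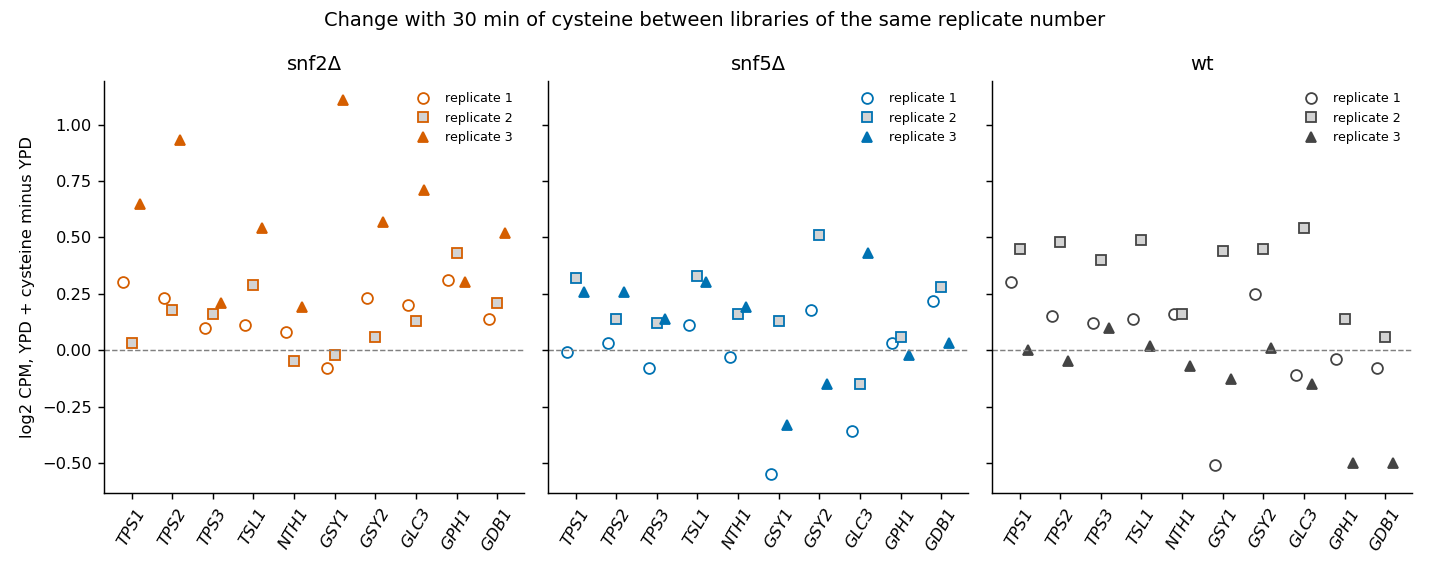
Log2 change in CPM with 30 min of cysteine between libraries of the same replicate number, for each of the 10 genes in *snf2Δ* (left), *snf5Δ* (middle) and wt (right), with shapes for the replicate. The changes lie between -0.08 and 1.11 in *snf2Δ*, -0.55 and 0.51 in *snf5Δ* and -0.51 and 0.54 in wt.

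The response to cysteine was not shown to differ between mutants and wt in any of the 10 genes. The difference of the log2 changes ran from -0.08 to 0.44 for *snf2Δ* minus wt and from -0.44 to 0.30 for *snf5Δ* minus wt, with libraries taken as unpaired, where 0 of the 10 were called by edgeR, DESeq2 or limma and 0 had an unadjusted p under 0.05 by edgeR. Over all genes, 0.00% were called higher and 0.0869% lower for *snf2Δ*, and 0.00% and 0.330% for *snf5Δ*. With the block within strain 0 of the 10 were called either, but 2 had an unadjusted p under 0.05 for *snf2Δ* minus wt, *GPH1* (0.49, adjusted p = 0.211 by edgeR) and *GDB1* (0.41, adjusted p = 0.327), and 1 for *snf5Δ* minus wt, *GDB1* (0.36, adjusted p = 0.277). That paired test called 0.556% of all genes for *snf2Δ* and 1.46% for *snf5Δ* in either direction, and 8.27% and 11.4% had an unadjusted p under 0.05.

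Between the mutants none of the 10 genes passed the test, with 0 at an unadjusted p under 0.05 and 0 called by DESeq2 or limma. The lowest log2 values of *snf5Δ* over *snf2Δ* were those of *GLC3* (-1.25, 95% interval -3.01 to 0.50) and *GSY1* (-1.24, -2.78 to 0.31) in YPD+Cys and of *GSY1* (-0.90, -2.47 to 0.66) and *GLC3* (-0.84, -2.60 to 0.92) in YPD. The intervals of *GPH1* (-1.88 to 1.25 and -1.58 to 1.63) do not exclude a 2-fold difference either way. Of all genes, 1.37% were higher and 1.16% lower in *snf5Δ* than in *snf2Δ* in YPD+Cys, and 1.68% and 1.30% in YPD.

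Other genes of the pathway were taken from 4 lists. Of 6 genes that turn glucose into UDP-glucose (*HXK1*, *HXK2*, *GLK1*, *PGM1*, *PGM2* and *UGP1*), 2 fell in each mutant in YPD+Cys, and 3 fell in *snf2Δ* and 2 in *snf5Δ* in YPD, with none higher. The share of all genes that fell was 11.6% in *snf2Δ* and 11.3% in *snf5Δ* in YPD+Cys, and 11.8% and 15.0% in YPD. The main phosphoglucomutase gene *PGM2* fell in all 4 comparisons of mutant and wt, with log2 values in YPD+Cys of -2.09 for *snf2Δ* (adjusted p = 0.0267) and -2.48 for *snf5Δ* (adjusted p = 0.0109). It had 102, 122 and 28.7 CPM in *snf2Δ* and 100, 95.2 and 28.1 CPM in *snf5Δ*, against 132, 461 and 438 CPM in wt, in YPD (log2 -2.03, SE 0.64, adjusted p = 0.0324, and -2.16, SE 0.64, adjusted p = 0.0184), with wt replicate 1 again the lowest of its group. In *snf2Δ* in YPD the hexokinase gene *HXK1* (log2 -1.61, adjusted p = 0.0289) and the other phosphoglucomutase gene *PGM1* (-0.50, adjusted p = 0.0178) also fell, and in *snf5Δ* the hexokinase gene *HXK2* did (-0.75, adjusted p = 8.59e-04). The *PGM2* calls in YPD were lost without wt replicate 2 or 3 in both mutants (adjusted p of 0.0588 to 0.102), without *snf2Δ* replicate 1 or 3 (0.0732 and 0.0996) and without *snf5Δ* replicate 3 (0.0766). Those in YPD+Cys were lost for *snf2Δ* on leaving out *snf2Δ* replicate 1 or 3, or wt replicate 2 or 3 (0.062 to 0.113), or by limma (0.093 to 0.117), and for *snf5Δ* without wt replicate 2 (0.0509) or in 2 of 3 limma settings (0.0583 and 0.0657). That of *HXK1* was lost on leaving out any 1 *snf2Δ* replicate, or wt replicate 2 or 3 (0.0583 to 0.147) and that of *PGM1* on leaving out *snf2Δ* replicate 1, or wt replicate 1 or 3 (0.0776 to 0.0956), while that of *HXK2* held without each library in turn but was lost by limma (-0.26, adjusted p of 0.471 to 0.49). Without the 3 libraries of many reads in several places, the *snf5Δ* call of *PGM2* in YPD was lost (log2 -1.78, adjusted p = 0.0606 by edgeR). The *snf2Δ* calls in YPD were then lost as well, with 1 *snf2Δ* library left. Their log2 values were -1.73 for *PGM2*, -1.32 for *HXK1* and -0.63 for *PGM1*. The other trehalase genes, *NTH2* and *ATH1*, passed the test in neither mutant, with log2 values in YPD of -0.03 and 0.28 in *snf2Δ* and 0.02 and 0.49 in *snf5Δ*.

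A list of 12 genes held those for glycogen priming and for the control of glycogen synthase, and also *SGA1*, a glucoamylase gene whose enzyme breaks glycogen down. In YPD+Cys 4 rose and none fell in *snf2Δ* (*SGA1*, *GLG2*, *PIG1* and *PCL10*), and 3 rose (*SGA1*, *GLG2* and *PCL10*) and 1 fell (*GLG1*) in *snf5Δ*, against 7.73% of all genes higher in *snf2Δ*, and 9.73% higher and 11.3% lower in *snf5Δ*. *SGA1*, and the glycogenin genes *GLG1* and *GLG2*, which prime the chain, are named here after their values were seen. For *SGA1* the log2 fold change in YPD+Cys was 1.24 for *snf2Δ* (adjusted p = 0.0208) and 1.71 for *snf5Δ* (adjusted p = 0.00203). Its level was low, with a mean of 7.46 CPM in *snf2Δ* in YPD+Cys. The calls of *SGA1*, *GLG1* and *GLG2* were not checked under the alternatives. The *snf2Δ* call of *PCL10* in YPD+Cys was lost on leaving out *snf2Δ* replicate 1 or 3, or wt replicate 1 or 3 (adjusted p of 0.0534 to 0.118), and with the compared groups alone (0.0859). That of *PIG1* was lost on leaving out *snf2Δ* replicate 2, or wt replicate 1 or 3 (0.0612 to 0.0965), by DESeq2 (0.0608) and with the compared groups alone (0.104). In YPD 1 rose in *snf2Δ* and 2 in *snf5Δ*, and none fell, against 7.89% and 12.0% of all genes higher. *PIG1*, a putative targeting subunit of the phosphatase Glc7 that activates glycogen synthase, rose in YPD (in *snf2Δ* by log2 0.77, adjusted p = 0.0071, and in *snf5Δ* by 0.72, adjusted p = 0.00791), and *PCL10*, a cyclin of the kinase Pho85 that phosphorylates Gsy2, rose in *snf5Δ* (0.42, adjusted p = 0.0432). Of 10 regulators of stress and carbon signalling, 3 fell in *snf2Δ* and 2 in *snf5Δ* in YPD+Cys, and 3 fell in each mutant in YPD, with none higher. The shares of all genes that fell were 11.6% for *snf2Δ* and 11.3% for *snf5Δ* in YPD+Cys and 11.8% and 15.0% in YPD, so that 2 of 10 is near the share of all genes. Those in YPD were *MSN4*, which encodes the stress activator (in YPD -1.66 for *snf2Δ*, adjusted p = 0.00347, and -1.04 for *snf5Δ*, adjusted p = 0.034), and the genes of the glucose-sensing kinase Snf1 and its subunit Snf4. *SNF1* fell by 0.67 and 0.97 and *SNF4* by 0.56 and 0.59 on the log2 scale in *snf2Δ* and *snf5Δ* in YPD (adjusted p of 0.00176 to 0.0218). *MSN4* had 77.8, 74.5 and 59.5 CPM in *snf2Δ* and 119, 123 and 81.1 CPM in *snf5Δ*, against 117, 290 and 265 CPM in wt, in YPD, so that wt replicate 1 was at the level of *snf5Δ*. The *snf5Δ* call of *MSN4* was lost on leaving out any 1 *snf5Δ* replicate, or wt replicate 2 or 3 (adjusted p of 0.0619 to 0.167), that of *PCL10* on leaving out *snf5Δ* replicate 1 or 2, or wt replicate 2 or 3 (0.094 to 0.185), and the *snf2Δ* call of *SNF1* on leaving out *snf2Δ* replicate 1 or 3, or wt replicate 2 or 3 (0.0555 to 0.0853). With library totals the YPD calls of *SNF4* were lost, at -0.32 for *snf2Δ* (adjusted p = 0.0868) and at -0.24 for *snf5Δ* (adjusted p = 0.161), as were those of *SNF1* in *snf2Δ* (-0.43, adjusted p = 0.0758) and of *MSN4* in *snf5Δ* (-0.68, adjusted p = 0.107). By limma on log2(TPM + 1) the only YPD calls named from the 4 lists that held were those of *PIG1* and *PCL10* in *snf5Δ*. The others had adjusted p of 0.0506 to 0.999, with *SNF4* at -0.33 in *snf2Δ* and 0.00 in *snf5Δ* and *SNF1* at -0.40 in *snf5Δ*. That of *PIG1* in *snf2Δ* held on log2(TPM + 0.1) (adjusted p = 0.019) but not with the compared groups alone (0.0566). Without the 3 libraries of many reads in several places, the *snf5Δ* call of *MSN4* in YPD was lost (log2 -0.85, adjusted p = 0.154 by edgeR). The *snf2Δ* calls in YPD were then lost as well, with 1 *snf2Δ* library left. Their log2 values were 0.74 for *PIG1*, -1.5 for *MSN4*, -0.59 for *SNF1* and -0.6 for *SNF4*.

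Across the 18 libraries, the 45 pairs among the 10 genes had Pearson correlations of log2 CPM between 0.470 and 0.977, and deviations from the group means correlated between 0.608 and 0.992. These describe libraries that share strains, media and replicate numbers. Outside the lists above, the genes whose log2 CPM was most like the mean standardized profile of the 10 were YLR177W (r = 0.983), *NAB6* (0.976), *USV1* (0.966), *CYR1* (0.965) and *PTK2* (0.959). *CYR1* encodes adenylate cyclase, which makes the cAMP that activates protein kinase A, *USV1* a zinc finger transcription factor, *NAB6* an RNA-binding protein and *PTK2* a protein kinase. YLR177W had 98, 106 and 34.9 CPM in *snf2Δ* and 77.6, 87.8 and 36.7 CPM in *snf5Δ*, against 100, 219 and 145 CPM in wt, in YPD+Cys. It thus had the same low libraries, replicate 3 of the mutants and replicate 1 of wt, and only YLR177W was also among the 5 most alike genes on log2(TPM + 1).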

How the data were processed

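RNA depleted of ribosomal RNA was sequenced from 18 yeast libraries, 3 for each of 6 groups. Per the labels and the study's methods, the authors demultiplexed with bcl2fastq 2.18, aligned to sacCer3 with STAR 2.7.3a (2.7.3 in 1 place) using an Ensembl annotation, and deposited whole-number counts of uniquely placed reads per gene. The authors also deposited expected counts and TPM from RSEM 1.3.0. The strand setting of the counting is not given in the sources used here, so reads of overlapping antisense genes cannot be told apart, and reads shared by the paralogs *GSY1* and *GSY2*, *TPS3* and *TSL1*, or *NTH1* and *NTH2* make their values uncertain. In each library 4 lines that name no gene held 14.4% to 78.2% of the reads and were left out. Of 7127 gene identifiers, 6047 matched the RefSeq reference, whose R64 sequence gave the start codon windows.

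Counts were tested with edgeR 4.0.16 (R 4.3.3, TMM scaling, filterByExpr, quasi-likelihood test, 1 fit over all 18 libraries, Benjamini-Hochberg adjustment over 5757 genes, threshold 0.05), in 11 comparisons. Totals of 1329986 to 4845830 counts limit the precision of low genes. CPM are counts scaled to a common library size with TMM factors, and CPM per kilobase divides them by gene length. Ratios of TPM within a library were compared by exact permutation tests (scipy 1.17.1). Alternatives were DESeq2 1.42.0, limma 3.58.1 on log2(TPM + 1) or log2(TPM + 0.1) with and without a mean TPM of at least 1, RSEM expected counts rounded to whole numbers, other scalings and filters, the compared groups alone, replicate blocks, and leaving out libraries. The TPM values in limma had no TMM or other scaling between libraries. The scripts were tested on simulated data. Over 5747 other genes, the deviations of same-numbered YPD+Cys and YPD libraries correlated at 0.454 to 0.783 in *snf2Δ*, 0.221 to 0.508 in *snf5Δ* and 0.490 to 0.603 in wt, so libraries were treated as paired within strain. The pairing comes from these data and not from the labels.

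The text names all 10 genes, and up to 6 genes of each other list that were called in either mutant against wt in YPD, largest changes first, together with the other trehalase genes and the 5 genes most alike in profile. The genes and lists were chosen with earlier results of these data known.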

Additional observations from a re-analysis of the deposited data

How the results depend on the processing

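Under the alternatives, 192 counts of called genes were equal or close to those by edgeR, and 23 moved. Many of the 192 were 0 in both settings. The counts of both mutants against wt depended on the setting. By limma on TPM values (log2(TPM + 1), log2(TPM + 0.1) or no filter) 1 of the 10 genes was called for *snf2Δ* in YPD+Cys and 1 in YPD, against 4 each by edgeR. With the compared groups alone 1 was called for *snf2Δ* in YPD+Cys and 2 in YPD, and 5 for *snf5Δ* in each medium. Without the 3 libraries of many reads in several places 0 were called for *snf2Δ* in YPD, where 1 of its libraries is left and is assumed to vary like the other groups. Leaving out 1 library at a time gave 1 to 4 calls for *snf2Δ* in either medium, and 2 to 4 for *snf5Δ* in YPD+Cys and 2 to 3 in YPD. The replicate number as a block over all groups (replicate block) gave 4 and 5 for *snf2Δ* and 7 and 6 for *snf5Δ* in YPD+Cys and YPD. The calls it added were *TPS2* in *snf2Δ* in YPD, *TPS2*, *GLC3* and *NTH1* in *snf5Δ* in both media, and *TPS3* in *snf5Δ* in YPD+Cys. Across strains the deviations of same-numbered libraries correlated between -0.299 and 0.561, so the numbers are not shown to pair strains. The replicate block within strain gave 1 call for cysteine in *snf2Δ* (*TPS2*) and changed no other call of the 10. Over the 10 genes and the genes of the other lists called in YPD, 2559 alternative values kept their side of the threshold. A further 203 lost the call and 27 gained one. Another 9 were called by edgeR and changed sign in the alternative. Most of the 2559 were called in neither setting. Such values count as kept whatever their sign, and some of the cysteine changes did change sign. The 203 losses fell on edgeR calls of mutant against wt, each with 18 alternatives. Those calls were kept in 5 (*NTH1* in *snf2Δ* in YPD) to 18 of them. Those 9 are limma values, none called, of *PGM1* in *snf2Δ* (log2 0.07, 0.08 and 0.07) and of *HXK2* (0.24, 0.24 and 0.24) and *SNF4* (0.32, 0.34 and 0.32) in *snf5Δ* in YPD+Cys, on log2(TPM + 1), log2(TPM + 0.1) and without a filter. All 212 alternative ratio values moved by less than the larger SD of the compared groups. Leaving out 1 of 3 libraries cannot move a mean that far. For those values the outcome was fixed in advance and says nothing about stability.

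Over all genes, limma called 291, 319 and 288 for *snf2Δ* in YPD, against 1136 by edgeR, and 3521, 3455 and 3532 for *snf5Δ* in YPD+Cys, against 1212. Of the calls on log2(TPM + 1), 67% (*snf2Δ* in YPD) to 97.0% (*snf5Δ* in YPD+Cys) were higher, against 40% and 46.2% by edgeR. With the compared groups alone *snf2Δ* had 571 in YPD+Cys (against 1113) and 688 in YPD, and without the 3 libraries 531 in YPD. With library totals the median of all genes moved to 0.18 for *snf2Δ* and 0.23 for *snf5Δ* in YPD+Cys and to 0.26 and 0.34 in YPD, and the share of calls that were higher to 68.0% for *snf2Δ* and 78.8% for *snf5Δ* in YPD+Cys, and to 77.3% and 84.1% in YPD. For *snf5Δ* against *snf2Δ* in YPD edgeR called 172, against 51, 39 and 49 by limma, 109 with these groups alone, 305 under the replicate block and 21 without the 3 libraries. In YPD+Cys it called 146, against 50, 37 and 47 by limma, 95 alone and 266 under the block. For cysteine it called 37 in *snf2Δ*, against 16, 15 and 15 by limma, 23 alone and 17 without the 3 libraries, 52 in *snf5Δ*, against 29, 27 and 28 by limma, and 25 in wt, against 10, 6 and 10 by limma, 6 alone and 42 by DESeq2. For the differences of the cysteine response it called 5 for *snf2Δ* and 19 for *snf5Δ*, against 14 and 29 by DESeq2, 1 and 7 by limma on log2(TPM + 1), and 32 and 84 under the replicate block within strain, with 3 for *snf2Δ* without the 3 libraries. The medians of the 10 genes with library totals were -0.72 and -0.79 in YPD+Cys and -0.78 and -0.60 in YPD. The causes of these differences were not tested.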
